A study of Mus musculus with 2 samples.

Results

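Phagocyte and Fc receptor genes were followed as a set of 10 genes, Coro1a, Rac2, Syk, Fcer1g, Tyrobp, Fcgr1, Fcgr2b, Fcgr3, Fcgr4 and Ptprc, of 22905 genes named on the arrays. They were chosen by gene symbol, and every array probe whose RefSeq accession belonged to one of them was used, which gave 13 probes. RNA of whole colon came from C57BL/6 mice, Villin-Cre as the control against the genotype Villin-Cre; EP4flox/flox, called EP4 cKO, and the methods give an age of 8 weeks. Both genotypes carried Cre recombinase under the Villin promoter, which is active in intestinal epithelium, and no treatment is named. In EP4 cKO mice this Cre acts on the floxed gene Ptger4, which encodes EP4, a receptor for prostaglandin E2, so that the gene is aimed at in the epithelium and not in the leukocytes that share the tissue. The comparison asks how the transcripts of the colon differ when the epithelium lacks EP4.

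Fc gamma receptors are surface proteins of phagocytes and other leukocytes that bind the constant part of IgG antibodies. Fcgr1, Fcgr3 and Fcgr4 are activating chains that signal through the adaptor Fcer1g, whereas Fcgr2b is the inhibitory chain. Fcer1g and Tyrobp (DAP12) carry a tyrosine motif, the ITAM, and when it is phosphorylated the kinase Syk docks on it and passes the signal on. Rac2, a GTPase of blood cells, drives actin assembly and the oxidative burst, Coro1a (coronin 1A) is an actin-binding protein of leukocytes, and Ptprc (CD45) is the tyrosine phosphatase found on nearly all leukocytes.

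There was 1 array per genotype, with RNA that the labels describe as combined from 3 pools, so no difference had a replicate check and no p-value can be given. Signals are intensities scaled so that the trimmed mean of each array was 2500, a ratio is EP4 cKO over Villin-Cre on the log2 scale, and the error after ± is the one the scanner software gave for the spot. That error covers the measurement of a spot and not the spread between mice. The array labelled Villin-Cre showed 45.4% of 56593 probes well above background, the one labelled EP4 cKO 51.6%, and 24734 probes were so on both. For a probe that was so on 1 array only, the dim side was held at a minimum. This was the lowest signal well above background there (125 on Villin-Cre and 57.8 on EP4 cKO), and it gives a bound written as "at least". Where the dim side already lay above that signal, as for Cx3cr1 and Coro2b, its own ratio was used and is not a bound. A gene was given the value of its brightest probe, and 14676 genes had one. Ptger4 had a signal of 6227 on Villin-Cre and 5661 on EP4 cKO with its brighter probe, a log2 ratio of -0.14, and of 393 and 592 with the other, a ratio of 0.59. The brighter probe had a ratio of 0.02 after scaling to the 75th percentile and of 0.86 after scaling to control spots, and whether either probe lies in the deleted part was not tested. Directions therefore rest on the labels of the arrays.

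None of the 4 Fc gamma receptor genes was measurable in whole colon. Their 5 probes had signals of 27.3 to 54.2 on Villin-Cre and 12.6 to 33.4 on EP4 cKO, and not 1 of them was well above background on either array. The signal of Fcgr1, the high-affinity IgG receptor, was 32.5 on Villin-Cre and 14.6 on EP4 cKO. The inhibitory receptor Fcgr2b had signals of 30.2 and 33.4 with one probe and of 27.3 and 12.6 with the other. All of these values lay below the lowest signal that counted as well above background on the same array. Fcgr3, the low-affinity activating receptor of myeloid and NK cells, had a signal of 29.1 ± 29.3 on Villin-Cre and 15.8 ± 13.4 on EP4 cKO. Fcgr4, the activating receptor of monocytes and macrophages, had a signal of 54.2 ± 25.7 on Villin-Cre and 32.7 ± 11.9 on EP4 cKO. By the looser criterion of the software, a signal positive and significant against the local background, 3 of the 5 probes passed on EP4 cKO and 1 on Villin-Cre. Errors of this size leave no fold to give, and a change in these 4 genes was not detectable at this signal. In bulk tissue, few cells of a type and little RNA per cell cannot be told apart. Over all named genes, 35.9% had no probe well above background on either array.

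The promoters of these genes are shown because windows of 3 chains that could not be measured hold letters that match sites known from myeloid and interferon-induced genes. RefSeq (GRCm38.p6) gave 12 promoter windows, from 250 bases before to 50 after a start, for 8 of the 10 genes, and Rac2 and Tyrobp had no entry. Both strands were searched for the STAT site GAS (TTCNNNGAA), the interferon response element ISRE (GAAA and a second GAAA with 2 bases between) and GAGGAA, the core bound by the myeloid factor PU.1. No overlap between these sites was found in the windows below, and capitals mark each match, with TTCCTC being GAGGAA on the other strand. The windows are Fcgr1 (chr3:96293920-96294219, minus strand), Fcgr4 (chr1:171018676-171018975, plus strand), 1 of 2 windows of Fcgr3 (chr1:171059354-171059653, minus strand) and, as a kinase that could be measured, 1 of 2 windows of Syk (chr13:52596632-52596931, plus strand).
Fcgr1: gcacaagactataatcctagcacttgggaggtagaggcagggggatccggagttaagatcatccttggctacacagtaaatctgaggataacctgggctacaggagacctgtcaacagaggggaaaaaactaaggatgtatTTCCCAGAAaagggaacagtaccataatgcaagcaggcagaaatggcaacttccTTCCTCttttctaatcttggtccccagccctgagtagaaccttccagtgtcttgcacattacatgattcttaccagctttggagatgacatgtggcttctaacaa
Fcgr4: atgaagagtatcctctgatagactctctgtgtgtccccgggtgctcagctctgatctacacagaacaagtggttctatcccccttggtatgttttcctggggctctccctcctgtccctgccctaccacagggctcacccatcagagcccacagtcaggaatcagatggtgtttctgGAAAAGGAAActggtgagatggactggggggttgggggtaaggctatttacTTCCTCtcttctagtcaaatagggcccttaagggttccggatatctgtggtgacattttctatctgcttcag
Fcgr3: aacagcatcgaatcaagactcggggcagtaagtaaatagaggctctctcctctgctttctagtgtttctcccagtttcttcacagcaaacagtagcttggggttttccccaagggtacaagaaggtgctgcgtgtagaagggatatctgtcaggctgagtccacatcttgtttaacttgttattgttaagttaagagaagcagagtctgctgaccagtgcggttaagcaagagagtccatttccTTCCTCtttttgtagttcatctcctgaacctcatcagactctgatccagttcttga
Syk: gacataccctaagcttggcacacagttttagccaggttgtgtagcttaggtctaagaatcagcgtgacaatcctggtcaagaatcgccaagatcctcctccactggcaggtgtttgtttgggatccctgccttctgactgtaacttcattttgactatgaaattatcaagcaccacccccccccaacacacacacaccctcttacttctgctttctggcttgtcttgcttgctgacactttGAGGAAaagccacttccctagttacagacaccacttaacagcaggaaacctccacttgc

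Among the 12 windows a GAS site was found in 1, that of Fcgr1, where it begins at -109 from the start. An ISRE was also found in 1 window, that of Fcgr4, beginning at -73. The PU.1 core stood in 6 windows of 5 genes, at -55 in Fcgr1, -22 in Fcgr4, -6 and -15 (the same bases) in the overlapping windows of Fcgr3, -158 in Ptprc and -9 in Syk. Among 32851 promoters of the same length, 8.30% held a GAS site, 3.44% an ISRE and 28.3% the PU.1 core. These are matches of letters and not measured binding, and the windows of Coro1a, Fcer1g and Fcgr2b held none of the 3.

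Fcer1g and Tyrobp, the adaptors through which such receptors signal, were both measured on both arrays and both were higher on EP4 cKO. Fcer1g, the common gamma chain that Fcgr1, Fcgr3 and Fcgr4 as well as the IgE receptor need at the surface, had a signal of 693 ± 76.4 on Villin-Cre and 1074 ± 108 on EP4 cKO. That is a log2 ratio of 0.63 (spot error 0.22), or 1.55-fold, the smallest among the measured genes of the set. Tyrobp, the adaptor of TREM and related receptors, had a signal of 422 ± 52.7 on Villin-Cre and 817 ± 82.9 on EP4 cKO. Its ratio of 0.95 (spot error 0.23), or 1.93-fold, fell just short of the 2-fold line. Thus the adaptors gave signals well above background in a tissue whose Fc gamma chains did not. Fcer1g lies on chromosome 1 near Fcgr2b, Fcgr4 and Fcgr3. Of the 7 other protein-coding genes between Fcgr2b and Fcer1g there, 6 were measured, with log2 ratios from -0.75 (Pcp4l1) to 0.50 (Nr1i3) and a median of 0.10, and 0 of them passed 2-fold in either direction.

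Syk, the kinase that binds phosphorylated ITAMs, had 2 probes and both were brighter on EP4 cKO. With the brighter probe the signal was 5039 ± 505 on Villin-Cre and 12151 ± 1215 on EP4 cKO, a log2 ratio of 1.27 (spot error 0.20) or 2.41-fold. With the dimmer one it was 211 ± 33.1 and 350 ± 36.9, a ratio of 0.73 (spot error 0.27) or 1.66-fold. The probes differed in size though not in direction, and the mean of their ratios lay just under 2-fold.

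Coro1a and Rac2, the actin regulators of leukocytes, had the largest ratios of the set with the scaling used here. Coro1a had a signal of 828 ± 88.3 on Villin-Cre and 2394 ± 240 on EP4 cKO, a log2 ratio of 1.53 (spot error 0.21) or 2.89-fold. Rac2 had 328 ± 42.5 and 922 ± 93.0, a ratio of 1.49 (spot error 0.24) or 2.81-fold. The ratio of Rac2 was 1.18 after normexp with quantile normalization, below the 1.26 of Syk there. The phosphatase Ptprc had a signal of 416 ± 49.8 on Villin-Cre and 813 ± 82.3 on EP4 cKO with the probe that was well above background, a ratio of 0.97 (spot error 0.23) or 1.95-fold. Its second probe, with 27.5 and 50.3, was well above background on neither array.

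**Figure D1:**
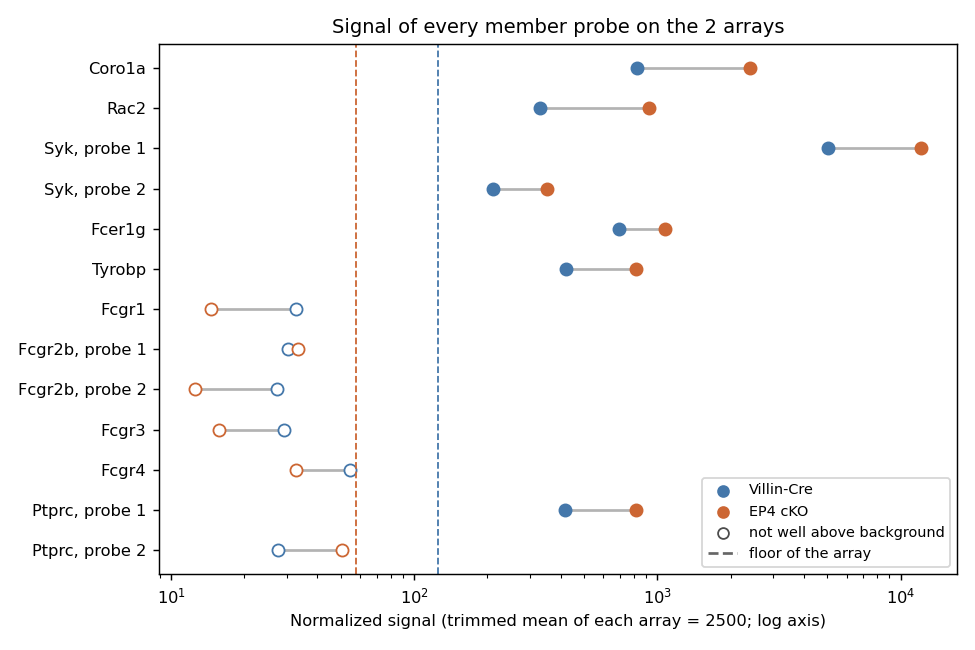
Normalized signal (log axis, trimmed mean of each array 2500) of the 13 probes of the 10 genes on the Villin-Cre array (blue) and the EP4 cKO array (orange), 1 spot per array, with open circles for probes not well above background and dashed lines at the lowest signal well above background of each array (125 and 57.8). The 7 filled pairs all lie further right on EP4 cKO, from the dimmer Syk probe (211 to 350) to the brighter one (5039 to 12151), while the 5 probes of the Fc gamma receptors and the second Ptprc probe lie left of the line of their array.

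Of the 10 genes, 6 had a value, each measured on both arrays, and all 6 ratios were above 0. More than 1.5-fold higher on EP4 cKO were 6, against 9.86% of the 14676 genes with a value. More than 2-fold higher were 3 (Coro1a, Rac2 and Syk), against 4.89% of those genes and 4.05% of the 12814 genes measured on both arrays. So every measured gene of the set lay on the higher side. None was more than 2-fold lower, against 7.98% of the genes, and none passed 3-fold. The median ratio was 1.12 over the 6 genes and -0.10 over all genes with a value. Ranked from the highest ratio, Coro1a stood at 348 of 14676, Rac2 at 368, Syk at 491, Ptprc at 764, Tyrobp at 784 and Fcer1g at 1318. In this order Coro1a and Rac2, and likewise Ptprc and Tyrobp, differed by less than their spot errors.

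**Figure D2:**
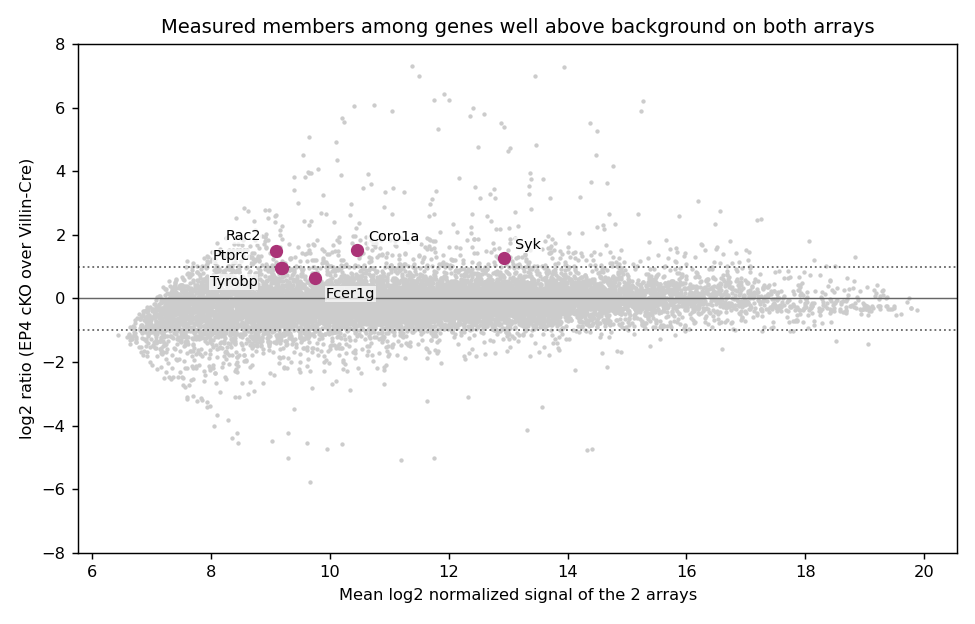
Log2 ratio (EP4 cKO over Villin-Cre) against mean log2 normalized signal of every gene measured on both arrays (grey, 12814 genes), with the 6 measured genes of the set in colour and dotted lines at 2-fold. Coro1a (1.53), Rac2 (1.49) and Syk (1.27) lie above the upper line, Ptprc (0.97) and Tyrobp (0.95) just under it and overlapping, and Fcer1g at 0.63.

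The level at which both arrays are set equal moved the count but not the direction. Dim probes had lower ratios than bright ones over the whole array, with a median of -0.55 in the dimmest of 10 equal classes of the probes measured on both arrays and -0.10 in the brightest. Coro1a and Fcer1g lay in the fifth (median -0.19), Rac2, Tyrobp and Ptprc in the fourth (-0.23) and Syk in the eighth (-0.08), so that each stood 0.82 (Fcer1g) to 1.72 (Coro1a and Rac2) above the median of probes of like signal. Tyrobp and Ptprc crossed the 2-fold line under 3 other scalings, which made 5 of the 6 genes more than 2-fold higher. The share of all genes was then 6.42% with the 75th percentile, 5.97% with a trimmed mean over all spots and 6.21% with loess. Normexp with quantile normalization kept 3 genes past 2-fold, against 4.1% of all genes. With the spots of 8 E1A control probes, which added 0.998 to the ratio of each probe measured on both arrays and so lifted above 0 each such ratio that lay less than this below it, all 6 passed, as did 36.3% of all genes. Among these, Fcer1g ranged from 0.55 to 0.83 and Coro1a from 1.49 to 1.70 when the control spots were left aside.

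**Figure D3:**
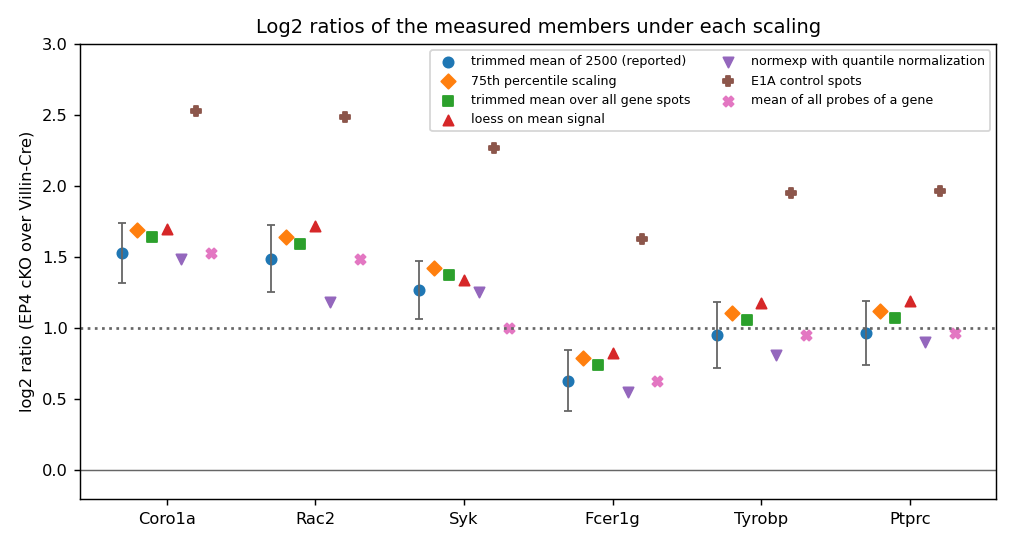
Log2 ratio (EP4 cKO over Villin-Cre) of the 6 measured genes as reported (blue circles, with bars for the spot error given by the scanner software) and under 6 other ways of scaling, correcting or averaging, with a dotted line at 2-fold. Every point lies above 0; Tyrobp and Ptprc cross the dotted line with 4 of the alternatives, Syk lies on it with the mean of its probes, and the E1A control spots lift all 6 genes by 0.998.

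Around these genes, 11 lists of the pathway held 165 further genes, of which 164 were on the arrays and 130 had a value. Past 2-fold lay 11 on the higher side (8.46%) and 6 on the lower (4.62%), against 4.89% and 7.98% of all genes, and the median was 0.11. Genes of these lists well above background on 1 array only were all so on EP4 cKO, and could not fall on the lower side. Over the 102 measured on both arrays, 8 were higher and 6 lower, with a median of 0.04. Of all genes measured on both arrays, 4.05% were higher and 6.27% lower. The counts were 20 and 4 with the 75th percentile, 7 and 2 after normexp with quantile normalization, and 74 and 2 with E1A control spots. The lists below go from the receptors inwards.

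Of 12 other Fc receptors, 6 had a value. None of their ratios or bounds passed 2-fold, though 1 bound did with the 75th percentile, and the median was 0.39 (0.03 over those measured on both arrays). The highest bound was that of Fcer1a, the IgE-binding chain of mast cells, with a signal of 236 on EP4 cKO and 32.7, not well above background, on Villin-Cre, at least 1.88-fold higher. Ms4a2, the beta chain of the same receptor, went from 25.0, not well above background, to 208, at least 1.66-fold higher. Both belong to the receptor that uses Fcer1g. Trim21, the antibody receptor inside cells, had a ratio of 0.79, Fcrl5 of 0.05, Fcrls of 0.01 and Fcgrt, the neonatal Fc receptor that carries IgG across cells, of -0.58, from 5798 on Villin-Cre to 3871 on EP4 cKO. Fcer2a, Fcamr, Fcrl1, Fcrl6, Fcrla and Fcrlb were not well above background.

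Of the 19 receptors that pair with Fcer1g or Tyrobp, 10 had a value, with a median of -0.08 (0.07 with the 75th percentile) that was -0.63 over the 6 measured on both arrays. None was more than 2-fold higher and 3 were more than 2-fold lower. Gp6, the collagen receptor of platelets that signals through Fcer1g, fell from 351 to 107 (-1.71), and Cd300ld from 528 to 182 (-1.54). Oscar, a collagen receptor of osteoclasts and myeloid cells, fell from 2484 to 1190 (-1.06), while its other probe gave only a bound of 0. After normexp with quantile normalization these ratios were -0.67, -0.78 and -0.88, and none passed 2-fold. Trem2, Trem3, Clec4e, Clec4d, Clec5a, Sirpb1a, Cd300lb, Pira2 and Ncr1 were not well above background, and Trem1 had a ratio of -0.19. The median of these partners was 0.10 after normexp with quantile normalization and 0.92 with E1A control spots.

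Among 7 other adaptors, ITAM chains together with Hcst (-0.72), 6 had a value, with a median of -0.30. Cd3g, a chain of the T-cell receptor complex, went from 208 to 504 (1.28, or 0.87 after normexp with quantile normalization), the only one past 2-fold. Cd3d had a ratio of -0.79 with its brighter probe and 0.90 with the other, and the median of the list was 0.30 after normexp with quantile normalization, so that the list had no settled direction. Of 14 kinases around Syk, 11 had a value, with a median of 0.21. Zap70, the relative of Syk in T cells, had a ratio of 0.54, Lyn of 0.42 and Btk a bound of 0.63.

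Of 22 substrates and relays beyond Syk, 19 had a value, 1 higher and 1 lower. The median of 0.00 is set by bounds counted as 0, and it was -0.11 over those measured on both arrays. Pik3cg, the catalytic PI3-kinase subunit of leukocytes, had a signal of 339 on EP4 cKO and 27.2, not well above background, on Villin-Cre, at least 2.71-fold higher. Lat2, a membrane adaptor of B cells and myeloid cells, fell from 817 to 78.2, a ratio of -3.38 (-1.66 after normexp with quantile normalization). Plcg2 had a ratio of 0.42 and Vav1 of 0.09. Of 17 inhibitory receptors and phosphatases, 15 had a value, with a median of -0.00, 1 higher and 1 lower. Cd72, an inhibitory receptor of B cells, had a signal of 262 on EP4 cKO and 27.9, not well above background, on Villin-Cre, at least 2.09-fold higher, but 0.34 on the log2 scale after normexp with quantile normalization. Dok3, an adaptor that dampens immune receptor signals, fell from 272 to 128 (-1.08, or -0.52 after normexp with quantile normalization). Inpp5d (SHIP1), the lipid phosphatase that Fcgr2b recruits, had a ratio of 0.83.

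The lists next to Rac2 and Coro1a had medians above 0. The phagocyte NADPH oxidase, the enzyme complex of the oxidative burst that Rac2 switches on, had 0 genes past 2-fold. Its cytosolic subunit Ncf4 had a ratio of 0.72, Cyba 0.16, Rac1 0.78 and Ncf1 a bound of 0, while Cybb, the catalytic subunit, was not well above background. The complex was thus only partly measurable. Of 15 Rac and Cdc42 GTPases and regulators, 14 had a value, with a median of 0.47, 2 higher and 0 lower. Dock8, an exchange factor for Cdc42 in leukocytes, went from 229 to 659 (1.52), and Prex1, an exchange factor for Rac, from 420 to 999 (1.25) with its second probe at a bound of 1.95. The close relatives of Rac2 had ratios of 0.78 for Rac1, which most cells make, and 0.54 for Rac3.

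Of 24 genes of actin and the phagocytic cup, 22 had a value, with a median of 0.39, 3 higher and 0 lower, and 7 higher with the 75th percentile. Lcp1 (L-plastin), an actin-bundling protein of leukocytes, went from 547 to 1607 (1.55), with bounds of 1.18 and 0 for its other probes and 0.91 for the mean of the 3. Coro2a went from 6684 to 15208 (1.19, with 0.50 for its other probe) and Msn (moesin), which links actin to the membrane, from 346 to 705 (1.03, or 0.86 after normexp with quantile normalization). The remaining coronins stood near 0, with 0.02 for Coro1b, 0.32 for Coro1c, 0.11 for Coro7 and 0.17 for Coro2b. The signal of Coro2b was not well above background on Villin-Cre, and that of Coro6 on neither array. Among 12 relatives and partners of Ptprc, 11 had a value and 0 passed 2-fold, with a median of -0.17. Ptprcap, the protein bound to CD45, had a ratio of 0.49 and Ptpre of 0.43, and Ptprs had -0.68.

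Phagocytic uptake receptors that do not need antibody were mixed. Of 19 on the arrays, 14 had a value, with a median of -0.08, 2 higher and 1 lower. Mrc1, the mannose receptor, had a signal of 540 on EP4 cKO and 90.6, not well above background, on Villin-Cre, at least 4.31-fold higher. Itgax (CD11c) went from 152 to 505 (1.73). Axl, a receptor for dying cells, fell from 1155 to 280 (-2.05). Itgam and Itgb2, the chains of complement receptor 3, had a ratio of 0.48 and a bound of 0.37. The other probe of Itgam had a bound of 0, and the mean of its probes was 0.24. Cd14, the lipopolysaccharide co-receptor, had a ratio of 0.88, while Msr1, Cd36, Timd4, Stab1 and Havcr1 were not well above background.

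**Figure D4:**
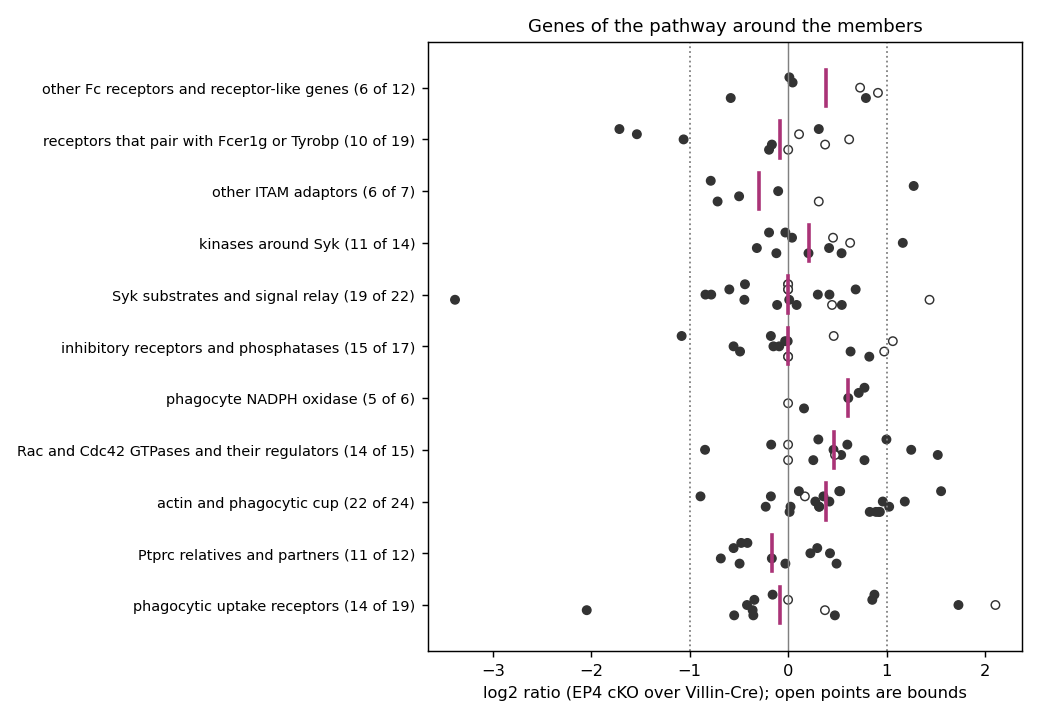
Log2 ratio (EP4 cKO over Villin-Cre) of every gene with a value in the 11 pathway lists (filled points measured on both arrays, open points bounds, coloured bars the list medians, dotted lines 2-fold; in brackets genes with a value of those on the arrays). The medians include -0.30 for the list of other ITAM adaptors, which also holds Hcst, and 0.47 for Rac and Cdc42 GTPases and regulators. Single genes run from -3.38 (Lat2) to at least 2.11 (Mrc1). Scaling to E1A control spots puts all 11 medians above 0.

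The label of the set, phagocytes, was checked against cell type markers. Of 14 macrophage and monocyte markers, 10 had a value, 3 were more than 2-fold higher and 0 lower. Ly6c2, a monocyte marker, had a log2 ratio of 2.50 and Mrc1 was at least 4.31-fold higher. Cx3cr1 went from 128, not well above background, to 262. Its log2 ratio of 1.03 (spot error 0.42) is not a bound and passed the 2-fold line by less than that error. After normexp with quantile normalization the ratio of Cx3cr1 was 0.59. The defining markers Adgre1, Cd163, Ccr2 and Lyz2 were not well above background, and Csf1r, the growth factor receptor of macrophages, had a ratio of -0.79 and Cd68 of -0.09. The summed signal of the list was 72349 on Villin-Cre and 378245 on EP4 cKO, and without Ly6c2 it was 6733 and 5940. Leaving out Csf1r as well gave 1860 and 3123, so that the direction of the sum turned with a single gene. The markers of the named cell type thus did not move together, and with the Fc gamma receptors unmeasured the set is better described by its leading genes, Coro1a, Rac2 and Syk.

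Of 8 mast cell markers, all with a value, 4 were higher: Mcpt1, at least 79.0-fold, Mcpt2, at least 11.3-fold, Cpa3, at least 4.49-fold, and Cma1 (1.05). Kit, the stem cell factor receptor, had a ratio of -0.71 and Tpsb2 a bound of 0, and the median over the 2 markers measured on both arrays was 0.17. Mcpt1, Mcpt2 and Cma1 encode mast cell chymases and Cpa3 a carboxypeptidase stored with them. The sum of the list was 3789 on Villin-Cre and 15732 on EP4 cKO, of which Mcpt1 made up 81.3 and 9897. Of 10 measured T and NK cell markers, 3 were higher (Gzma 3.60, Nkg7 1.42 and Cd3g 1.28) and 1 lower (Prf1 -2.16), with sums of 8609 and 13899 (8133 and 8104 without Gzma). Gzma and Prf1, both granule proteins of cytotoxic cells, thus lay on opposite sides. Of 5 measured neutrophil markers, 2 were higher, S100a8 by at least 2.83-fold and S100a9 (1.25), with Elane at -0.16 and Mpo and Cxcr2 not well above background. Csf3r (-0.38) alone made up 106452 and 81629 of the sums of 109204 and 84872. Of 3 measured dendritic cell markers, 1 was higher, Itgax, which made up 152 and 505 of the sums of 375 and 726. Zbtb46 had a bound of 0 and Ccr7 a ratio of -0.05, and Flt3, Xcr1, Clec9a, Cd209a and Batf3 were not well above background. Neutrophil and dendritic cell lists had defining markers on both sides of detection. B and plasma cell markers had 0 of 6 past 2-fold, with Ms4a1, Cd79a and Mzb1 not well above background and sums of 54112 and 70730 (7716 and 8759 without Xbp1). Of 8 measured pan-leukocyte markers, Cd52 alone was more than 2-fold higher (1.43), with Cd44 at 0.96, Cd48 at 0.55, Cd37 at -0.93 and Laptm5 at -0.58. Cd53, Spi1 and Ikzf1 were not well above background. Cd52 made up 1498 and 4039 of the sums of 8584 and 11151. The median of that list was 0.23, and the ratio of Ptprc, 0.97, was near that of Cd44.

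All 11 epithelial markers had a value and a median of 0.05, with Krt20 higher (1.80) and Lgr5 lower (-1.09). Krt20 is a keratin of mature surface cells and Lgr5 a stem cell receptor. Of 7 measured fibroblast and matrix markers 5 were lower, with a median of -4.50, set by the bound of Col1a1, and sums of 15125 and 3217. The median was -2.66 over the 4 measured on both arrays and -2.46 after normexp with quantile normalization. All 3 measured erythrocyte markers were lower, with a median of -4.74 and sums of 132324 and 4838. Of 5 smooth muscle markers with a value 1 was lower (Cnn1 -2.73), with sums of 30049 and 45462, and nerve and glia had 1 lower of 3, while endothelium had 0 of 3 and fat 0 of 1 past 2-fold. The direction of the matrix and erythrocyte lists held under every scaling. The part of any of these lists in the ratios of the 6 measured genes was not tested.

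**Figure D5:**
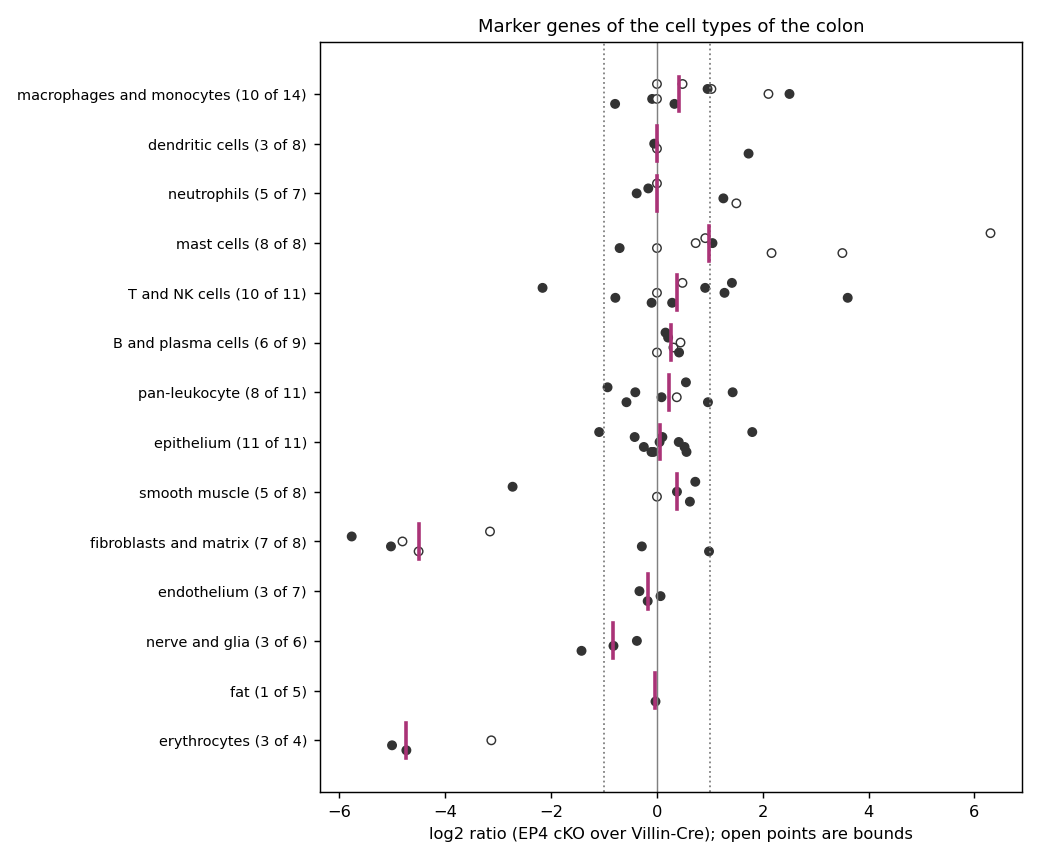
Log2 ratio (EP4 cKO over Villin-Cre) of every marker gene with a value in 14 cell type lists. Filled points were measured on both arrays, and open points were well above background on 1 array only, most of them bounds. Coloured bars give the list medians, dotted lines 2-fold, and brackets the genes with a value of those on the arrays. The mast cell list reaches at least 6.30 (Mcpt1), the macrophage and monocyte points run from -0.79 (Csf1r) to 2.50 (Ly6c2), and fibroblast and erythrocyte medians lie at -4.50 and -4.74.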

How the data were processed

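RNA of mouse whole colon was hybridized in 1 colour to 2 Agilent arrays, 1 per genotype, grouped by the labels. The methods give n = 3, and the labels 1 array per genotype with RNA from 3 pools. The authors deposited scanner intensities processed by Feature Extraction (12.0.3.1 in the file headers, 11.5.1.1 in the submitters' processing notes), background-subtracted and detrended but not scaled between arrays. The deposited flags and spot errors were used as given.

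Control and outlier spots (147 on Villin-Cre, 126 on EP4 cKO) were left out, spots of a probe averaged, and each array multiplied (3.45 and 2.68) to a trimmed mean of 2500 without 2% at each end, after the methods. A bound not above 1 was counted as a log2 ratio of 0. RefSeq accessions named 32984 probes (58.3%). No spot was saturated. Over 287 probes with several spots, the log2 ratio had a median SD of 0.034 between spots. Signal over background and the number of arrays limit the precision, and no test was made.

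The genes and lists were chosen with earlier results of these data known. All 10 genes, Ptger4 and, per list, up to 5 genes past 2-fold are named, and further genes were chosen once their values had been seen. Alternatives were the 75th percentile, a trimmed mean over all spots, loess (span 0.3), E1A control spots, normexp (offset 50, on median spot signal, since the mean planned was not used here) with quantile normalization, filters on dim probes, the mean of a gene's probes, and thresholds of 1.5-fold and 3-fold. The steps were tested on simulated data. Protein sequences were not analysed here, and some single genes are left unreported. Python 3.11.15 (numpy 2.4.6, pandas 2.3.3, statsmodels 0.14.6, matplotlib 3.10.9) and R 4.3.3 (limma 3.58.1) were used.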

Additional observations from a re-analysis of the deposited data

How the results depend on the processing

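All 6 measured genes had log2 ratios above 0 under each of the 8 alternatives. Of 10 genes, 3 were more than 2-fold higher as reported, 5 with the 75th percentile, 5 with a trimmed mean over all gene spots, 5 with loess and 6 with E1A control spots. They numbered 6 at a threshold of 1.5-fold and 0 at 3-fold. The count was 3 after normexp with quantile normalization, 3 with either other filter on dim probes and 2 with the mean of a gene's probes. The median log2 ratio of 1.12 became 2.12 with E1A control spots and lay between 0.98 and 1.28 otherwise. The difference of that median from the median of all genes ran from 1.04 to 1.49. Of 48 ratios of single genes, 39 moved by less than the spot error and 9 by more. Many of the 39 were fixed in advance. The filters on dim probes could not change genes measured on both arrays, and the mean of a gene's probes changed Syk alone. The 75th percentile and the trimmed mean over all spots added 0.16 and 0.11 to each ratio, less than the lowest spot error of 0.20. These filters and scalings therefore tested neither the stability nor the direction of the ratios. The share of 2-fold differences over all genes that were higher was 38.0% as reported (717 higher, 1171 lower). It was 50.6% with the 75th percentile (942 and 921), 50.8% with loess (911 and 882), 60.4% after normexp with quantile normalization (602 and 395), 93.8% with E1A control spots (5322 and 352) and 13.9% where dim probes counted at their measured signal (1172 and 7252). The median ratio of probes measured on both arrays, -0.19, shifted by 0.16, 0.11, 0.16, 0.16 and 0.998 with the 75th percentile, the trimmed mean over all spots, loess, normexp and E1A control spots. The causes were not tested. No paired analysis was possible because there was 1 array per genotype, and no array could be left out. The 4 Fc gamma receptor genes stayed without a value wherever a probe had to be well above background.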
